A study of Homo sapiens with 12 samples.

Results

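The m6A peaks described here are those that the deposited files assign to a transcript of the biotype nonsense_mediated_decay (NMD), in HGC27 cells with and without knockdown of the m6A demethylase FTO. They were chosen by the transcript biotype column of each peak list and number 1759 of 39492 control peaks (4.45%) and 1475 of 28891 knockdown peaks (5.11%). A further 114 of 8687 named rows of the differential peak table were taken because their chromosome, start and end equal those of such a peak, and they belong to 104 genes. HGC27 is an established human gastric carcinoma line. Control cells carry the genotype label WT, and the treated cells are labelled FTO-KO while the protocol calls them a knockdown. Each condition had 3 immunoprecipitated (IP) and 3 input libraries, 12 in all, from poly(A) RNA broken into short fragments and pulled down with an m6A antibody. The labels name no hairpin, clone or control vector and do not say whether the 3 libraries of a group came from separate cultures. Each limma p-value on input RNA therefore reflects no more than the variation among these libraries, part or all of which may be technical. The peak caller is not given and IP libraries have no values of their own. What variation the deposited p-values of peaks and m6A changes measure is therefore not known. The 6 input libraries have values of their own, as FPKM of genes that have a differential m6A peak. Each condition has a single peak list, so a peak's fold enrichment of IP over input, the authors' own value throughout, carries no replicate error.

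Nonsense-mediated decay removes RNAs on which the ribosome stops too early. A stop codon well upstream of an exon junction leaves an exon junction complex on the RNA, and the helicase UPF1 with the SMG proteins then commits that RNA to degradation. Many genes make such isoforms through alternative splicing, among them splicing factors that use poison exons to limit their own level. N6-methyladenosine (m6A) is written on RNA by the METTL3 and METTL14 complex, most often near stop codons and in 3' UTRs, and FTO is an enzyme that can remove it. FTO input RNA was 5.48, 5.68 and 5.52 FPKM in the control libraries and 0.786, 0.830 and 0.765 FPKM in the knockdown libraries. The groups did not overlap, and the mean was 7.00-fold lower in the knockdown (log2 change of FPKM + 1 of -1.87, SE 0.047, limma adjusted p = 4.99e-07).

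The NMD label describes the transcript with the start site nearest to the peak, and the files show that the peak does not always lie in that transcript. In control cells 1267 member peaks (72.0%) overlapped the span of the assigned transcript, and in knockdown cells 1047 (71.0%) did. The peaks outside it lay a median of 5435 bases (control) and 4543 bases (knockdown) from its start. Where the annotation placed a peak in an exon, it named a transcript for 403 control and 420 knockdown peaks, and that transcript was the assigned one for 24 and 31 of them. The gene on which the peak was called equalled the assigned gene in 83.5% of control and 84.1% of knockdown members. The regions are therefore called NMD-assigned peaks, and neither the peaks nor the FPKM values separate an NMD isoform from the other isoforms of its gene. Of the member genes, 703 of 1140 in control and 487 of 927 in knockdown also had a peak assigned to another biotype.

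Sequence could be shown where a peak covered the start of its gene. Of the member peaks, 1349 in control and 1134 in knockdown matched a RefSeq gene start by symbol, and 61 and 54 covered all of the first 50 transcribed bases. The letters GGAC, the commonest form of the motif methylated by the METTL3 complex, were present there on the transcribed strand for 16 control peaks (26.2%) and 14 knockdown peaks (25.9%). The same letters occur in 18.9% of 35116 RefSeq gene starts of this length, and the reverse complement GTCC was found under 12 peaks in each list, beside 17.6% of all starts. The 8 genes below had GGAC under an NMD-assigned peak in both conditions, and they are shown because they give the sequence under the peaks directly. Each line reads 5′ to 3′ on the gene's strand, from RefSeq on GRCh38.p14, with the first GGAC in capitals. The MFSD12 line holds a further copy of these letters, left in lower case. A match is a description and not a mapped m6A site.
SLC35B3, chr6:8435533-8435562, minus strand: cgcacgcgcgcagGGACacataggcggaag
RABGEF1, chr7:66682187-66682215, plus strand: cgagcggtgacctGGACcacggcgcagac
MFSD12, chr19:3557551-3557580, minus strand: tcgagcgtggggcGGACgcggcggacgtgg
GRM8, chr7:127243470-127243499, minus strand: aggctgatttcaaGGACatgaattgttgac
ZC3H12A, chr1:37474580-37474597, plus strand: aGGACtcggccccatgga
TAF13, chr1:109075959-109075988, minus strand: gagccagccggcaGGACgctgtgagttggc
NAGK, chr2:71068648-71068674, plus strand: gcaaacggcgGGACcagcagcgacggt
CD320, chr19:8308309-8308338, minus strand: aagagagcggtctGGACagcgcgtggccgg

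The peaks over these starts ranged widely in enrichment. The SLC35B3 peak, on a Golgi transporter of nucleotide sulfate, was enriched 66.4-fold in control and 72.0-fold in knockdown. For RABGEF1, an exchange factor for the endosomal GTPase RAB5, the values were 17.0-fold and 31.5-fold. The MFSD12 peak had 20.6-fold and 31.5-fold enrichment, and the peak on GRM8, a metabotropic glutamate receptor, 20-fold and 12.8-fold. ZC3H12A, an endoribonuclease that cuts inflammatory mRNAs, had 12.2-fold and 15.4-fold enrichment, and TAF13, a subunit of TFIID, 10.7-fold and 4.29-fold. NAGK, the N-acetylglucosamine kinase, had 2.44-fold and 3.87-fold enrichment, and CD320, the transcobalamin receptor, 1.76-fold and 2.62-fold. Of the peaks that covered a start, 9 of 61 in control and 8 of 54 in knockdown were annotated as 3' UTR, as the CD320 peaks were, so the annotated place and the gene start can disagree.

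NMD-assigned peaks lay mostly in 3' UTRs. In control cells 59.1% were in a 3' UTR (exact binomial 95% interval 56.8 to 61.4%), 18% in a 5' UTR (16.2 to 19.8%) and 22.9% in another exon (21.0 to 24.9%). Peaks assigned to protein_coding transcripts had 49.9% in the 3' UTR and 28.3% in the 5' UTR. Those assigned to retained_intron transcripts had 62.3% and 4.71%, and those assigned to lncRNA 22.2% and 1.51%. The 5' UTR share of NMD-assigned peaks therefore lay between that of protein_coding and that of the other 2 types, and their intervals did not overlap. In knockdown cells the NMD-assigned shares were 52.3% in the 3' UTR, 19.2% in the 5' UTR and 28.5% in other exons. The 3' UTR share was lower than in control and the share in other exons higher, and protein_coding peaks had 44.5% and 27.3% there in knockdown, beside 49.9% and 21.9% in control. Over all peaks these shares were 46.5% and 39.6% in knockdown, beside 47.6% and 39.8% in control. Retained_intron peaks had 60.9% and 34.1%, beside 62.3% and 33.0%. The lncRNA peaks went the other way, with 25.8% and 72.5%, beside 22.2% and 76.3%. Intervals cover counting error only, and peaks of 1 gene share their source.

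**Figure D1:**
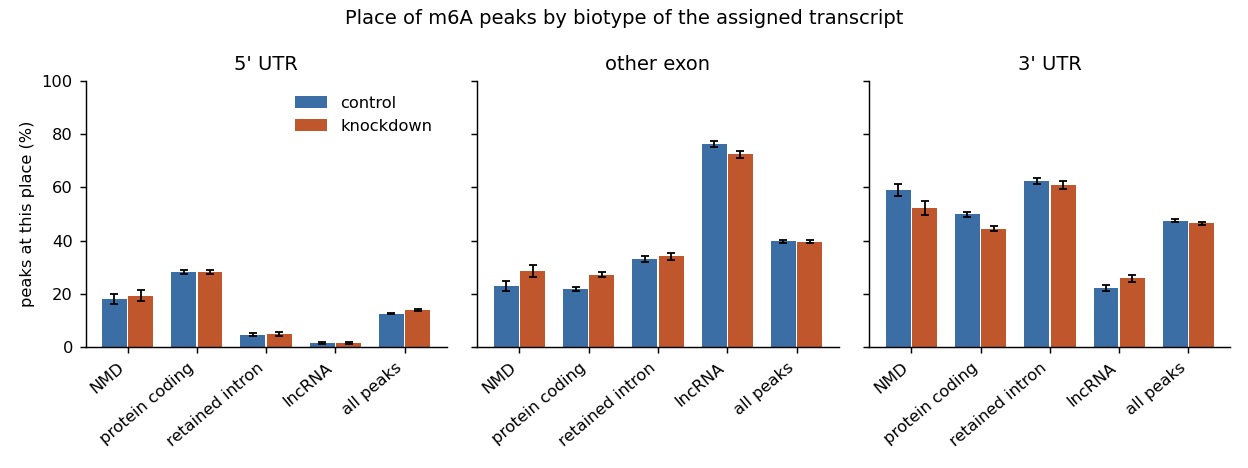
Share of m6A peaks (%, vertical axes) annotated in the 5' UTR, another exon or the 3' UTR, by biotype of the assigned transcript, in control (blue) and knockdown (orange) lists, with exact binomial 95% intervals. NMD-assigned peaks have a 3' UTR share of 59.1% in control and 52.3% in knockdown, and a 5' UTR share of 18% and 19.2%, between protein coding and retained intron.

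Where a peak lay relative to its assigned transcript went with its place. Among control members that overlapped the assigned transcript, 22.7% were in a 5' UTR, against 5.89% of those outside it. The knockdown list gave 23.7% and 8.18%. Peak enrichment differed little by this split in the knockdown list, with medians of 6.47-fold inside and 6.42-fold outside, and in the control list the medians were 5.73-fold and 4.96-fold.

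The NMD-assigned peaks were of ordinary strength for these lists. Their median fold enrichment was 5.55 (quartiles 2.82 and 9.91) in control, where all peaks had a median of 6.11, and 6.47 (quartiles 3.65 and 12.1) in knockdown, where all peaks had 7.05. Retained_intron peaks had medians of 4.58 and 5.85. Members covered a median of 360 exonic bases in control and 300 in knockdown, and 36.8% and 27.2% of them spanned more than 1 exon block. By place, the control medians were 5.73-fold in 3' UTRs, 5.12-fold in 5' UTRs and 5.09-fold in other exons. The knockdown medians were 6.47, 6.58 and 6.24. At least 20-fold enrichment was reached by 89 control members (5.06%, beside 5.90% of all control peaks) and by 138 knockdown members (9.36%, beside 11% of all). An adjusted p above 0.05 was carried by 135 control members (7.67%) and 27 knockdown members (1.83%). The 2 lists differ in length and in their share of weak peaks, so enrichment was not compared between them as a change.

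**Figure D2:**
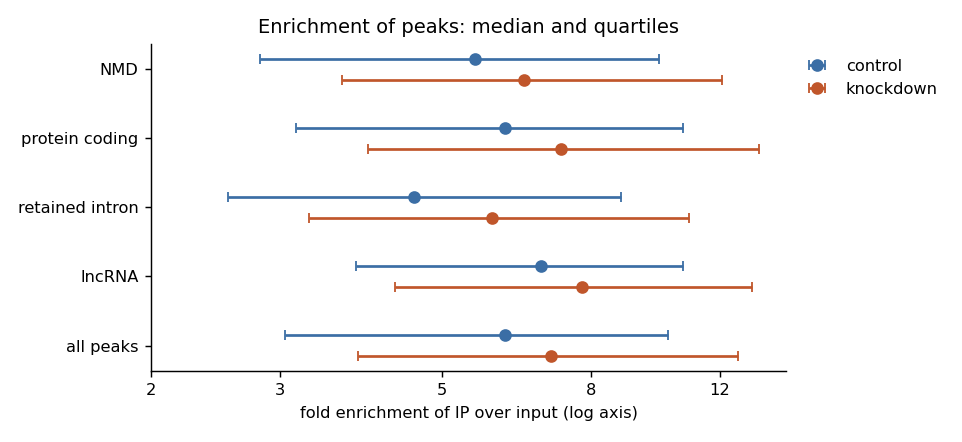
Fold enrichment of IP over input (log axis) of the peaks of each list by biotype of the assigned transcript, with the point at the median and the bar from the lower to the upper quartile. NMD-assigned peaks have medians of 5.55 in control and 6.47 in knockdown, just below those of all peaks.

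The most enriched members were found on genes of many functions, and every one of them overlapped a peak of the other condition. On TRIM41, a ubiquitin ligase, the same 1138 exonic bases of the 5' UTR at chr5:181223567-181224704 were called in both lists, with 78.7-fold enrichment in control and 133-fold in knockdown. On CPM, a membrane carboxypeptidase, the 3' UTR peak at chr12:68855527-68856603 had 91.6-fold enrichment in control, and the knockdown list held 2 shorter peaks there of 29.9-fold and 25.9-fold. CHMP7, an ESCRT protein that works in resealing the nuclear envelope, had 37.1-fold enrichment in the 5' UTR in control and 161-fold in knockdown. DFFA, the inhibitor of the caspase-activated nuclease, had 133-fold enrichment over 211 bases in knockdown and a 10.2-fold peak there in control. The highest value of all, 530-fold in knockdown and 71.8-fold in control, was on the histone gene H3-2 at chr1:143905756-143905966, and it is uncertain because histone H3 genes have near-identical copies. These values carry no error.

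Some other strong members had the higher value in the control list. These genes were picked as the most enriched of either list, so which value is higher partly follows from that choice. The pairs of values are therefore listed without being read as a change of m6A. BTBD7 had 38.2-fold enrichment in its 3' UTR in control, beside 7.00-fold and 3.38-fold for the overlapping knockdown peaks. PRX, the periaxin gene of myelinating cells, had 35.1-fold beside 11.3-fold and 4.99-fold, at an input level of only 0.588 FPKM in control (SD 0.144, n = 3). NUPR1, a stress-induced chromatin protein, had 34.4-fold beside 17.0-fold and 4.97-fold. CEP152, a centriole duplication protein, differed little, with 35.4-fold and 31.3-fold, as did the peak assigned to UQCRB, a subunit of respiratory complex III, with 38.2-fold and 32.3-fold. The remaining strong knockdown peaks were on B4GALNT4 (113-fold, 20.1-fold in control), ZNF830 (80.1-fold, with 23.7-fold and 20.6-fold), ANKRD33B (76.0-fold, 29.2-fold), RAB35 (72.0-fold, 29.0-fold) and CACNA1H (68.2-fold, 26.5-fold). The UQCRB and RAB35 peaks were called on another gene than the one assigned.

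**Figure D3:**
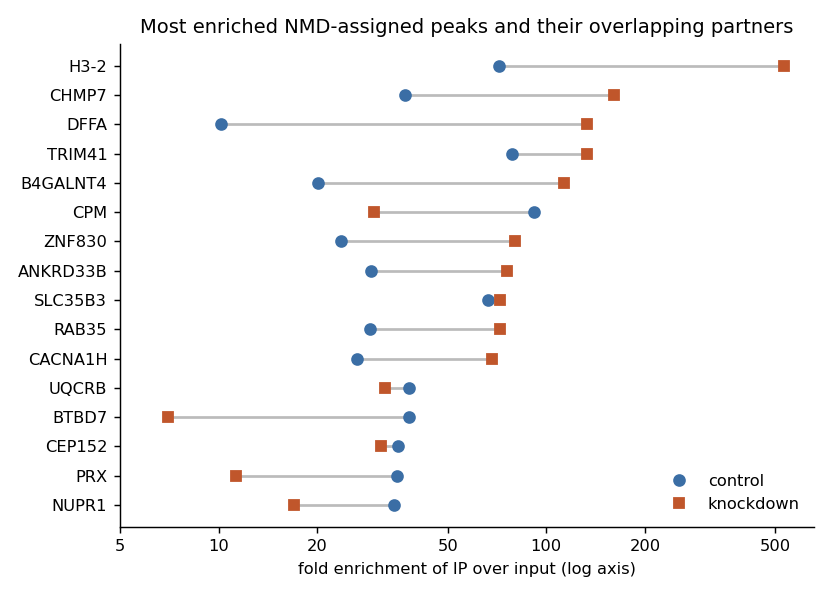
Fold enrichment of IP over input (log axis) of the most enriched NMD-assigned peaks of either list, 1 per gene, in control (blue circles) and knockdown (orange squares), with the strongest overlapping peak of the other list as partner. Of the 16 genes, H3-2 reaches 530 in knockdown and 71.8 in control, while BTBD7 is at 38.2 in control and 7.00 in knockdown. Which value is higher partly follows from picking the most enriched peaks of each list.

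Several genes carried many NMD-assigned peaks. Most member genes had a single one, 767 of 1140 in control and 604 of 927 in knockdown, and 28 and 23 genes had 5 or more. AATK, a kinase of the nervous system, had 9 in control (2.95 to 17.6-fold) and 12 in knockdown (2.55 to 67.9-fold), all annotated as 3' UTR. STARD9, a kinesin of the mitotic spindle, had 10 and 9, all in other exons. ZC3H11A, an mRNA export factor, had 10 in knockdown, all annotated as 5' UTR and of 1.80 to 12.3-fold. DST, which encodes the cytoskeletal linker dystonin, had 9 in control and 7 in knockdown, all in other exons. The 9 control peaks assigned to the golgin gene GOLGB1 were all annotated as 3' UTR, and none of them overlapped the assigned NMD transcript.

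Most NMD-assigned peaks recurred in the other condition at some level. In control, 1131 of 1759 members (64.3%, exact binomial 95% interval 62.0 to 66.5%) shared at least 1 exonic base with a knockdown peak of any biotype, where the background over all control peaks was 57.9%. Protein_coding peaks gave 63.0%, retained_intron peaks 59.5% and lncRNA peaks 48.7%. In knockdown, 1322 of 1475 members (89.6%, interval 88.0 to 91.1%) overlapped a control peak, beside a background of 88.8%. Members without a partner had a median of 3.55-fold over 181 bases in control and 3.25-fold over 120 bases in knockdown, and shared members had 6.63-fold over 539 bases and 6.82-fold over 330 bases. The shared part was 68.9% of control members inside their assigned transcript and 52.4% of those outside it, and in knockdown 89.0% and 91.1%. Exact positions recurred 57 times.

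By gene, 764 of 1303 genes with an NMD-assigned peak had one in both conditions. Of the 376 genes with such a peak only in control, 199 had a knockdown peak of another biotype. Of the 163 genes with one only in knockdown, 130 had a control peak of another biotype.

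The differential table compares m6A between conditions, and its 114 member rows lay mainly in 3' UTRs (77 rows, 67.5%), with 23 in 5' UTRs (20.2%) and 14 in other exons (12.3%). Over all 8687 rows the shares were 54.4%, 14.4% and 31.2%. The deposited log2 change is control over knockdown. Every m6A change printed here is that value with its sign reversed, so a positive value means higher in knockdown. In the authors' deposited table, 54 of the 114 rows were higher in knockdown, beside a background of 55.4% over all 8687 rows, and 60 were higher in control, beside 44.6%. This split follows from how members were chosen. Of the 68 rows whose position matched only the control list, 57 were higher in control, and of the 39 that matched only the knockdown list, 38 were higher in knockdown. The 7 that matched both lists had 5 higher in knockdown. Over all named rows, 1005 of 1440 that matched only the control list were higher in control. Of those that matched only the knockdown list, 625 of 643 were higher in knockdown, as were 171 of 201 that matched both lists. The wider set of 405 rows of the authors' deposited table that carry the NMD biotype, with no match of position required, had 223 higher in knockdown and 182 higher in control. The median absolute log2 change of the members was 0.585, beside 0.691 over all rows, and 18 members (15.8%) reached 1 in either direction, beside a background of 26.5%. Over all rows that match a peak list by position the share was 18%, and over the NMD-typed rows 23.7%. Of the members, 10 rows (8.77%) had an adjusted p above 0.05, and over all rows 11.8% did.

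**Figure D4:**
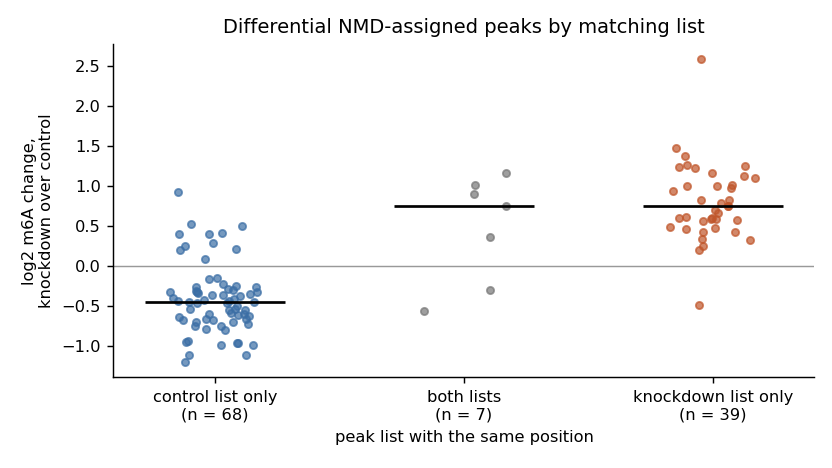
Log2 change of m6A, knockdown over control (vertical axis), for the 114 differential NMD-assigned peaks, split by the peak list with the same position. It is the authors' deposited value with its sign reversed. Each point is 1 row and each black line a median. Rows that matched the control list only have a median of -0.45, those that matched the knockdown list only 0.75, so the sign goes with the list.

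Among member genes that averaged 1 FPKM or more, the largest rise in the authors' deposited table was on KLHDC4, a kelch-repeat protein, at chr16:87765812-87765992 in the 5' UTR, with a log2 change of 2.59 (p = 3.89e-07). A knockdown peak of 5.71-fold was called there, and the control list held no NMD-assigned peak on KLHDC4. TEAD4, a transcription factor of the Hippo pathway, came next in the authors' deposited table with 1.48 (p = 0.000158) at chr12:2960183-2960332, also in the 5' UTR. Its knockdown peak was enriched 12.1-fold over 150 bases, and a 3.96-fold peak of 60 bases lay inside it in control. On TRIM41 the authors' deposited table gave 1.38 for a second, weaker 5' UTR peak of 3.69-fold at chr5:181230720-181230959, which is not the strong peak that both lists share. The authors' deposited table further gave 1.27 for TBC1D24, a vesicle trafficking protein, 1.25 for SOGA1, 1.23 for the lipid raft protein RFTN1 and 1.17 for SCAMP5, a secretory carrier membrane protein. It also gave 1.13 for the readthrough gene HNRNPUL2-BSCL2, 1.10 for the nuclear anchoring protein AKAP8 and 1.02 for RABGEF1, the last at a 3' UTR peak that was called on another gene and is not the 5' UTR peak shown above. In the authors' deposited table the p of these 7 rows ran from 1e-194 (SOGA1) to 0.00372 (SCAMP5).

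Rises and falls had similar places over all members, with 36 of 54 rises and 41 of 60 falls in 3' UTRs, and 10 and 13 in 5' UTRs. The largest fall in the authors' deposited table was on CCDC88A, the actin-binding protein girdin, at chr2:55339507-55344063 (log2 change -1.20, p = 2.88e-05), where a control peak of 3.65-fold was called and no knockdown peak overlapped it. KCNAB2, a potassium channel subunit, had -1.11 in the authors' deposited table at a 3' UTR peak of 91 bases, chr1:6101103-6101193, while a stronger 3' UTR peak of the same gene was called in both lists (5.67-fold in control). COMMD10 had -0.98 and the cytidine deaminase APOBEC3B -0.96 in the authors' deposited table. The APOBEC3B value comes from a pair of nearly equal rows that describe 1 site, in a gene with close paralogs, and 1 of the pair was called on another gene. For SMC2, a condensin subunit, the authors' deposited table gave -0.96 at chr9:104141269-104141419 (p = 0.0324). ERCC5, the nuclease of nucleotide excision repair, had overlapping 3' UTR rows of -0.75 and -0.69 in the authors' deposited table, at peaks that were called on another gene. Among genes that averaged 1 FPKM or more, the next falls in the authors' deposited table were -0.80 for BRI3, -0.79 for HHLA3, -0.72 for SMAGP and -0.70 for FNDC3A. Of genes below that level, the authors' deposited table gave -1.11 for the tRNA methyltransferase subunit TRMT11 and -0.98 for the peak assigned to UQCRB.

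Some genes had member rows that point in opposite directions. On NSD2, a histone H3 methyltransferase, the authors' deposited table gave 1.0 in the 3' UTR and -0.25 in an exon. On CDK10 it gave 0.94 in the 3' UTR and -0.75 in an exon in the authors' deposited table. Of the 7 rows whose position stood in both lists, AATK had 10.2-fold and 67.9-fold enrichment and a log2 change of 1.16 in the authors' deposited table. INF2, a formin, had 4.07-fold and 8.73-fold and a change of 0.90 in the authors' deposited table. PGP, a phosphoglycolate phosphatase, had 12.5-fold and 7.77-fold and a change of -0.30 in the authors' deposited table. In all 7 the sign of the change, once reversed, was that of the ratio of the 2 enrichments. These 7 are among the 201 rows whose enrichment ratios were used to check that reversal, so the match is not independent of it.

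Input RNA levels were then compared for the genes with a differential member row. Of the 104 genes, 91 had a mean of at least 1 FPKM and were tested, and 53 of them passed an adjusted p of 0.05 with limma (58.2%), beside a background of 62.4% of 4515 tested genes. Of these, 22 rose (24.2% of those tested, background 24.5%) and 31 fell (34.1%, background 37.9%). The libraries of the groups did not overlap for 60 genes (65.9%, background 67.8%). The shares were thus near those of all genes with a differential peak, and the median log2 change was -0.05 beside -0.07 over all. The split depends on the scaling, with 26 higher and 23 lower after quantile normalization and 32 higher and 23 lower after centring each library on its median. Over all tested genes, 31.6% rose and 28.6% fell after quantile normalization, and 33.4% rose and 26.9% fell after median-centring. The summed FPKM of the table ran from 74289 to 78461 in control and from 83712 to 86902 in knockdown. Those scalings moved the median log2 change of all tested genes by 0.08 and 0.09. Fewer cells that express a gene and less RNA per cell cannot be told apart in these bulk libraries.

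ASNS, which makes asparagine and is a known target of the amino acid response, had the largest change among the called genes. It was 80.9, 76.0 and 76.3 FPKM in control and 35.3, 37.5 and 37.3 FPKM in knockdown. All 3 knockdown libraries lay below all 3 controls, with a log2 change of -1.06 (SE 0.043, limma adjusted p = 3.43e-06), and ASNS was the only called member beyond 1 in either direction. PIK3R2, a regulatory subunit of PI3 kinase, had a change of -1.66 that was not called (SE 1.08, limma adjusted p = 0.211). It was 30.3, 29.6 and 33.0 FPKM in control and 29.1, 26.4 and 0.246 FPKM in knockdown, so that value rests on knockdown library 3, without which it was -0.15 (limma adjusted p = 0.099). The 5' UTR peak of ASNS at chr7:97869136-97869908 was 2.07-fold enriched in control, with an m6A change of -0.55 in the authors' deposited table.

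SMC2, ERCC5 and DCLRE1B also fell. SMC2 was 7.18, 6.63 and 3.83 FPKM in control and 2.54, 3.11 and 2.54 FPKM in knockdown, without overlap but with control library 3 well below the other two (log2 change -0.85, SE 0.182, limma adjusted p = 0.00437). ERCC5 was 2.24, 2.10 and 1.72 FPKM in control and 0.964, 1.06 and 0.340 FPKM in knockdown (log2 change -0.78, SE 0.159, limma adjusted p = 0.00347). DCLRE1B, the telomeric nuclease Apollo, went from 8.43 ± 0.339 to 5.57 ± 0.087 FPKM (SD, n = 3 each), all 3 knockdown libraries being lower. The values of ERCC5 were near 1 FPKM, where the change on the log2(FPKM + 1) scale understates the ratio, and its mean ratio was 2.56-fold lower.

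The other large falls were in TMEM129, TMEM159, CACNA1H, PFKM, CCDC88A and FNDC3A. TMEM129, a ubiquitin ligase of the endoplasmic reticulum, was 10.6, 11.1 and 11.3 FPKM in control and 6.27, 6.37 and 6.16 FPKM in knockdown (log2 change -0.73). TMEM159, which encodes the lipid droplet protein promethin, went from 6.61 ± 0.364 to 3.47 ± 0.429 FPKM (SD, n = 3 each). CACNA1H, a T-type calcium channel, went from 10.2 ± 0.453 to 5.92 ± 0.410 FPKM (SD, n = 3 each). PFKM, the muscle form of phosphofructokinase, went from 19.7 ± 0.300 to 13 ± 0.446 FPKM (SD, n = 3 each). CCDC88A was 1.63, 1.62 and 1.06 FPKM in control and 0.587, 0.618 and 0.667 FPKM in knockdown, and FNDC3A fell by 0.56 on the log2 scale. The groups did not overlap in these 6 genes, which the choice of named genes requires.

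The rises were led by DPH2, which acts in making diphthamide on translation elongation factor 2. It was 17.7, 16.6 and 19.3 FPKM in control and 32.2, 29.8 and 33.6 FPKM in knockdown, with a log2 change of 0.80 (SE 0.064, limma adjusted p = 4.46e-05). BRPF3, a chromatin reader in histone acetyltransferase complexes, was 4.51, 4.93 and 4.28 FPKM in control and 8.10, 8.31 and 8.47 FPKM in knockdown (log2 change 0.74). SFPQ, a splicing factor of paraspeckles, went from 18.4 ± 0.910 to 30.3 ± 1.04 FPKM (SD, n = 3 each), and EFTUD2, a GTPase of the U5 snRNP, from 20.8 ± 0.705 to 30.3 ± 0.751 FPKM (SD, n = 3 each).

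STAT6, the transcription factor of interleukin-4 signalling, went from 15.8 ± 0.795 to 25.1 ± 0.650 FPKM (SD, n = 3 each). CTSA, the lysosomal protective protein, whose peak was called on another gene, went from 13.3 ± 0.988 to 20.9 ± 0.798 FPKM (SD, n = 3 each). The phosphate transporter SLC20A2 rose by 0.46 on the log2 scale, PGP by 0.44, AKAP8 by 0.40 and ICMT, the methyltransferase of prenylated proteins, by 0.32, where the ICMT peak too was called on another gene. As with the falls, these 10 genes were chosen among those whose groups do not overlap.

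**Figure D5:**
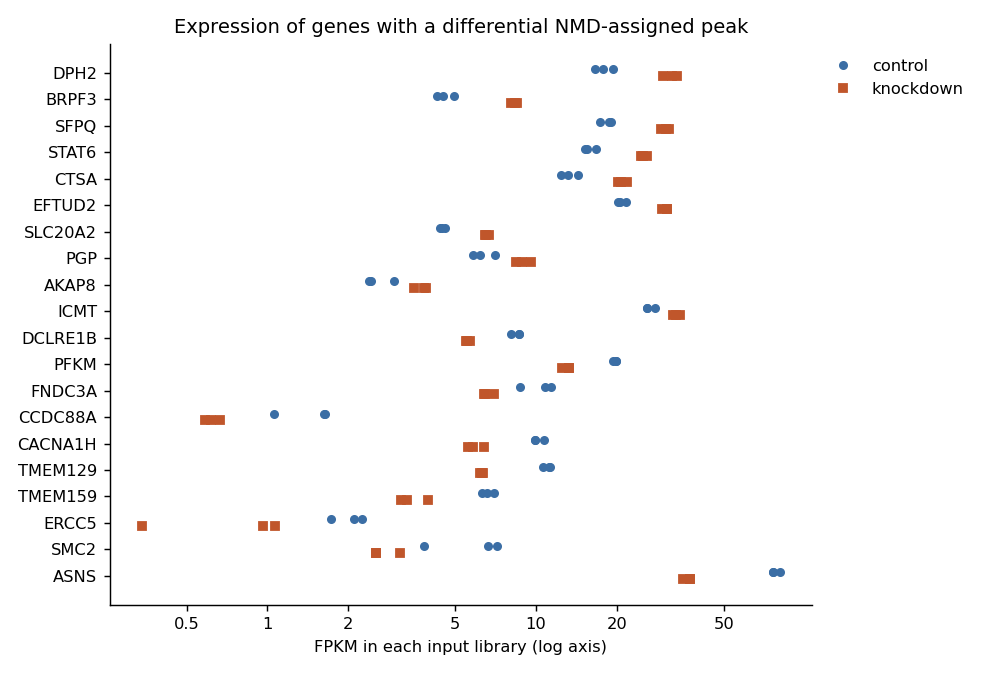
FPKM in each input library (log axis) of 20 genes with a differential NMD-assigned peak, the 10 largest called rises above the 10 largest called falls, with control libraries as blue circles and knockdown libraries as orange squares. The genes were chosen as called with groups that do not overlap, from DPH2 (17.9 and 31.8 mean FPKM) at the top to ASNS (77.7 and 36.7 mean FPKM) at the bottom.

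Set side by side, m6A and RNA changes of the member genes went both ways. Of 47 tested genes with a row higher in knockdown in the authors' deposited table, 13 rose, 12 fell and 22 were not called. Of 46 tested genes with a row higher in control, 10 rose, 19 fell and 17 were not called. Genes with rows in both directions count under both. Over all tested genes, 24.5% rose and 37.9% fell. Whether the direction of the RNA change goes with that of m6A was not tested. ASNS, CCDC88A, SMC2 and FNDC3A had lower m6A in the authors' deposited table and lower RNA. The m6A change of SMC2 had an adjusted p above 0.05 in that table. CACNA1H had an m6A change of 0.92 in the authors' deposited table and fell in RNA, and BRPF3 had -0.63 there and rose. For SOGA1, with a deposited m6A change of 1.25 in the authors' deposited table, RNA was 15.1 ± 0.097 FPKM in control and 15.2 ± 0.609 in knockdown (SD, n = 3 each; log2 change 0.004, SE 0.041, limma adjusted p = 0.933). HNRNPUL2-BSCL2 was listed at 0 in the second library of both groups and at 3.56, 3.45, 2.78 and 3.55 FPKM in the other 4 libraries. Enrichment is a ratio to input RNA, so the m6A and RNA values are not independent of each other.

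Of 31 NMD factors, 27 had a control peak of some kind and 7 of these (25.9%) an NMD-assigned one, beside 6.22% of all genes with a control peak. In knockdown the numbers were 22 and 5 (22.7%), beside 6.54% of all. These backgrounds count genes of every biotype, among them 3749 genes with a control peak assigned to lncRNA, so they are not matched to the list. The 7 include MAGOHB, with a control peak of only 1.80-fold. DHX34, a helicase that helps activate UPF1, had a 3' UTR peak of 16.1-fold in control and 15.4-fold in knockdown. SMG8, a subunit of the SMG1 kinase complex, had 9.79-fold and 10.2-fold, and EIF4G1, the scaffold of cap-dependent initiation, 7.48-fold and 7.82-fold. NCBP2, the small cap-binding subunit, had 8.49-fold in control and 5.66-fold and 5.33-fold in knockdown, at peaks called on another gene and outside the assigned transcript. The one differential member among the NMD factors was PABPC1, the poly(A)-binding protein, with a change of -0.36 in the authors' deposited table. Its exon peak of 1.44-fold in control lay outside the assigned transcript. PABPC1 RNA was 225, 225 and 228 FPKM in control and 201, 204 and 215 in knockdown (log2 change -0.13, limma adjusted p = 0.030). That call was lost under median-centring (log2 change -0.04, limma adjusted p = 0.535) and without control replicate 1, control replicate 2, knockdown replicate 1 or knockdown replicate 2 (limma adjusted p from 0.074 to 0.102).

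Of the 15 NMD factors with tested RNA, 7 rose, 2 fell and 6 were not called, where 24.5% of all tested genes rose and 37.9% fell, and the list median was 0.08 beside -0.07 over all genes. After median-centring 11 rose and 1 fell, where 33.4% of all tested genes rose and 26.9% fell. These shares are the background of the list counts below too. EIF4G1 was 46.0, 46.1 and 48.5 FPKM in control and 74.7, 73.4 and 76.4 in knockdown (log2 change 0.66, limma adjusted p = 1.58e-05). DHX34 was 5.94, 6.86 and 7.32 FPKM in control and 11.5, 11.2 and 11.6 in knockdown (log2 change 0.69, limma adjusted p = 9.01e-05). SMG5, an adaptor that recruits decay enzymes, went from 33.3 ± 2.42 to 51.2 ± 1.56 FPKM (SD, n = 3 each). CASC3, a core protein of the exon junction complex, went from 20.1 ± 0.522 to 25.8 ± 0.613 FPKM (SD, n = 3 each). NCBP2 fell from 7.18 ± 0.524 to 5.12 ± 0.10 FPKM (SD, n = 3 each). UPF1 was 11.4, 11.1 and 12 FPKM in control and 12.5, 12 and 11.9 in knockdown, and its groups overlapped.

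Among 18 published NMD targets, only ASNS had an NMD-assigned peak in control and only TBL2 in knockdown, the latter of 2.11-fold with a log10 adjusted p of -1.27. Of the 7 with tested RNA, 2 rose and 4 fell, with a median log2 change of -0.16, and after median-centring 2 rose and 3 fell. ATF4, the transcription factor of the integrated stress response, went from 146 ± 1.5 to 118 ± 1.75 FPKM (SD, n = 3 each), and CHAC1, an enzyme that degrades glutathione, from 31.0 ± 1.73 to 22.0 ± 0.941 (SD, n = 3 each). PPP1R15A, a phosphatase subunit of the same response, rose from 23.4 ± 0.384 to 29.0 ± 0.452 FPKM (SD, n = 3 each). SNHG12, a small nucleolar RNA host gene, rose from 4.65 ± 0.212 to 5.75 ± 0.263 FPKM (SD, n = 3 each).

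Of 47 splicing factors and RNA-binding proteins known for poison exons, 6 of the 35 with any control peak had an NMD-assigned one (17.1%) and 3 of 31 in knockdown (9.68%), and none had a differential member row. SRSF8 carried the strongest, of 11-fold in control and 14.0-fold in knockdown in its 3' UTR, and LUC7L3 had 5.53-fold and 8.79-fold there. TARDBP, which encodes TDP-43, had a 5.55-fold peak in control that was called on another gene, and SNRNP70, the U1 snRNP protein, a 5' UTR peak of 2.23-fold and 2.83-fold at the same 61 bases. Of 15 with tested RNA, 4 rose and 1 fell, after quantile normalization 4 rose and 3 fell (31.6% and 28.6% of all tested genes), and without control replicate 3 there were 3 falls. SRSF5 was 5.29, 5.08 and 4.55 FPKM in control and 6.82, 7.47 and 6.50 in knockdown (log2 change 0.41, limma adjusted p = 0.00104). HNRNPC, a nuclear RNA-binding protein that is also counted as an m6A reader, fell from 67.3 ± 2.06 to 55.4 ± 3.48 FPKM (SD, n = 3 each).

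Of 22 genes of the m6A machinery, FTO, IGF2BP3 and VIRMA had NMD-assigned peaks in control, and VIRMA alone in knockdown. That was 3 of the 21 with any control peak (14.3%) and 1 of 20 in knockdown (5.0%). The 4 control peaks assigned to an NMD transcript of FTO had 3.31 to 9.16-fold enrichment and log10 adjusted p from -0.63 to -1.49, in a gene at 5.56 ± 0.108 FPKM (SD, n = 3). No knockdown peak overlapped any of the 4. VIRMA, a subunit of the methyltransferase complex, had an exon peak of 10.5-fold in control and of 7.79-fold and 4.53-fold in knockdown. Of 12 with tested RNA, 1 rose and 6 fell, and after median-centring 2 rose and 3 fell. ZC3H13, another subunit of that complex, was 4.45, 4.77 and 3.44 FPKM in control and 2.42, 3.08 and 2.66 in knockdown (log2 change -0.48, limma adjusted p = 0.00488).

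Of 28 genes of ferroptosis and of the study's own pathway, POR, an electron donor to cytochrome P450 enzymes, was the only one with NMD-assigned peaks, of 3.30-fold and 4.84-fold in control. Of 15 with tested RNA, 5 rose and 4 fell, after median-centring 6 rose and 2 fell, and without knockdown replicate 2 there were 2 falls. POR went from 20 ± 0.772 to 17.7 ± 0.780 FPKM (SD, n = 3 each), a call that was lost after median-centring (limma adjusted p = 0.269) and without knockdown replicate 2 (0.058). Of 11 gastric epithelial markers, CLDN18 had NMD-assigned exon peaks of 13-fold in control and 9.70-fold in knockdown. MUC1 was the only one of these markers with a tested level, 1.24 ± 0.041 FPKM in control and 1.43 ± 0.219 in knockdown (SD, n = 3 each). Of 8 fibroblast markers, COL1A1 was at 169 ± 5.72 and 147 ± 8.10 FPKM and THY1 at 12.5 ± 0.606 and 15.0 ± 0.515 FPKM (SD, n = 3 each), neither list having an NMD-assigned peak there. None of 7 immune markers had a listed FPKM or an NMD-assigned peak.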

How the data were processed

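Per the labels' protocols, poly(A) RNA of HGC27 cells was fragmented and sequenced as paired ends with and without m6A immunoprecipitation. Bowtie 0.12.2, HISAT2 2.0, StringTie 1.3.0 and the mouse build mm8 appear per the submitters' processing notes, which give them no role. The peak caller is not given in the sources used here. Positions are human: of 1337 NMD transcripts with a RefSeq gene, 1335 overlapped its GRCh38.p14 span. Starts are printed counted from 1.

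Per the file headers, the authors gave FPKM of the 6 input libraries for genes with a differential peak, so the depth is unknown, a fold enrichment per peak, the ratio of IP to input, the log2 change of m6A, and as scores the log10 of p and of the adjusted p-value. The deposited log2 value is control over knockdown and was turned round: its sign then matched the enrichment ratio in 182 of 201 rows listed at 1 position in both lists. The 283 of 8970 differential rows with no gene name were left out, since their p cells were above 1.

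FPKM were tested as log2(FPKM + 1), pseudocount 1, for genes with a mean of at least 1, with limma 3.58.1 (trend, two-sided, Benjamini-Hochberg over 4515 genes, 3 libraries against 3) in R 4.3.3. A fold change on this scale understates the change of low genes. On simulated data for this comparison with 4515 genes, 31.3%, 85.1% and 98.5% of changes of 0.2, 0.5 and 1 were recovered, with 8 false among 151 calls. Only 67, 67 and 66 genes were changed at these sizes, whereas 62.4% of genes were called in the data, so these rates need not hold for the real calls. Overlaps came from bedtools 2.31.1 and intervals from scipy 1.17.1. Libraries correlated within condition at 0.988 to 0.992 and between conditions at 0.958 to 0.969. Replicate numbers did not pair the libraries.

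The named genes are the 10 largest rises and falls of m6A (1 per gene, mean of at least 1 FPKM) and of RNA (called, groups apart), the 10 most enriched peaks per list with an adjusted p of at most 1e-05, and members of the gene lists. The genes with many peaks, the start sequences, the rows in both lists and the opposite rows were chosen after their values were seen. Members and lists were chosen with earlier results of these data known. The alternatives changed the filter, pseudocount, scaling, libraries, overlap and peak thresholds.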

Additional observations from a re-analysis of the deposited data

How the results depend on the processing

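Leaving out 1 library at a time gave 44 to 63 called member genes, with 19 to 28 higher and 24 to 35 lower, around the reported 53 (22 and 31). Of all tested genes, 53.3 to 66.8% were called in those fits, beside 62.4% in the reported one. The replicate block left the member counts unchanged at 53 calls, 22 higher and 31 lower, and 60.8% of all tested genes were called. Replicate numbers are only shared labels here, since the correlations of same-numbered libraries were -0.077, 0.028 and 0.025, and with them as a block no named gene changed its call. A minimum of 5 FPKM left 52 genes and 31 calls, 16 of them lower, where 67.1% of all genes at that minimum were called. Taking the genes of all NMD-typed rows, chosen after seeing the data, gave 179 calls among 290 genes, 77 higher and 102 lower. Their called share was 61.7%, beside 62.4% of all tested genes. All NMD-typed rows held 223 higher and 182 lower in knockdown, and requiring an absolute log2 change of at least 1 left 15 and 3 of the 114 position-matched rows. Of these 18 rows, 13 matched the knockdown list only, where 38 of 39 members were higher in knockdown, 3 the control list only and 2 both. This split too therefore goes with how members were chosen. The share of control members with a partner was 43.3% at 50% reciprocal overlap, 70.3% at 4-fold enrichment, 77.1% with adjusted p values up to 1e-05, 59.2% with NMD-assigned partners only and 68.9% inside the assigned transcript. For knockdown members it was 52.5% at 50% reciprocal overlap, 85.7% at 4-fold enrichment and 80.7% with NMD-assigned partners only. The control 3' UTR share was 61.5% at 4-fold enrichment and 62.0% at that adjusted p, where the median enrichment was 6.19. Inside the assigned transcript, also chosen after seeing the data, the 5' UTR shares were 22.7% and 23.7% and the other exon shares 20.5% and 24.7%. With adjusted p values up to 1e-05 the knockdown 5' UTR share was 17.2%. Among named genes, KLHDC4 (limma adjusted p = 0.030) lost its call in 4 leave-one-out fits, those without control replicate 1 or 2 and knockdown replicate 1 or 3 (0.068 to 0.099). KCNAB2 gained a call under quantile normalization (0.010) and median-centring (0.014), and SCAMP5 without knockdown replicate 1 (0.029). The cause of these differences was not tested.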
